A study of Homo sapiens with 6 samples.

Results

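The 9 genes described here encode the guardians and the pore-forming effectors of the BCL2 family: the guardians BCL2, BCL2L1, BCL2L2, BCL2A1 and MCL1, the effectors BAX, BAK1 and BOK, and the mitochondrial relative BCL2L13. They were taken as a named list from 58523 genes to which the deposited transcripts could be assigned, and 9 of 9 passed the filter on low counts that left 22580 genes to test. The cells were A375, an established human melanoma line that carries an activating BRAF mutation. Treated cultures (replicates 4, 5 and 6, 3 libraries) received hMGL, a methionine-degrading enzyme engineered from a human protein, for 24 h, and Control cultures (replicates 1, 2 and 3, 3 libraries) received no enzyme. Both groups were grown in the same serum-containing medium, and the enzyme is the only difference that the labels name. The 24 h are given for Treated cultures, and no time is given for Control cultures. The labels describe the 6 cultures as independent but all come from 1 cell line, so the p-values below measure the spread between cultures of that line.

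Proteins of this family decide at the mitochondrial outer membrane whether a cell enters the intrinsic pathway of apoptosis. BAX and BAK, when activated by BH3-only proteins, assemble into pores that release cytochrome c, and the guardians hold BAX, BAK and the BH3-only proteins in check by binding them in a surface groove. In melanoma cells MCL1, BCL-XL and BCL2A1 are known as guardians that the cells rely on, and MCL1 and BCL2L1 transcripts can be spliced to short forms that favour death instead.

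All 5 guardian genes had more mRNA in Treated than in Control cultures, while among the effectors BAX fell, BAK1 rose and BOK did not pass the test. BCL2L13 also rose, by a small amount, and the calls of BCL2 and BCL2L13 were lost when levels were tested per length (values below). Across all genes tested 69.4% passed (edgeR quasi-likelihood test, Benjamini-Hochberg adjusted p under 0.05), 34.9% as higher and 34.5% as lower in Treated, so a call alone sets a member little apart; 8 of 9 members passed. Groups that did not overlap were seen for 8 of 9 members and for 73.3% of all genes. A called difference of at least 2-fold was less frequent: 14.6% of all genes were so much higher and 12.6% so much lower, against 3 of 9 members (BCL2L1, BCL2L2 and BCL2A1) and 1 of 9 (BAX). The median log2 fold change was 0.61 over the members and -0.02 over all genes. Values are CPM, counts scaled to library size with TMM factors, unless TPM is named. In bulk libraries scaled to their own totals, fewer cells with a transcript and less of it per cell cannot be told apart.

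**Figure D1:**
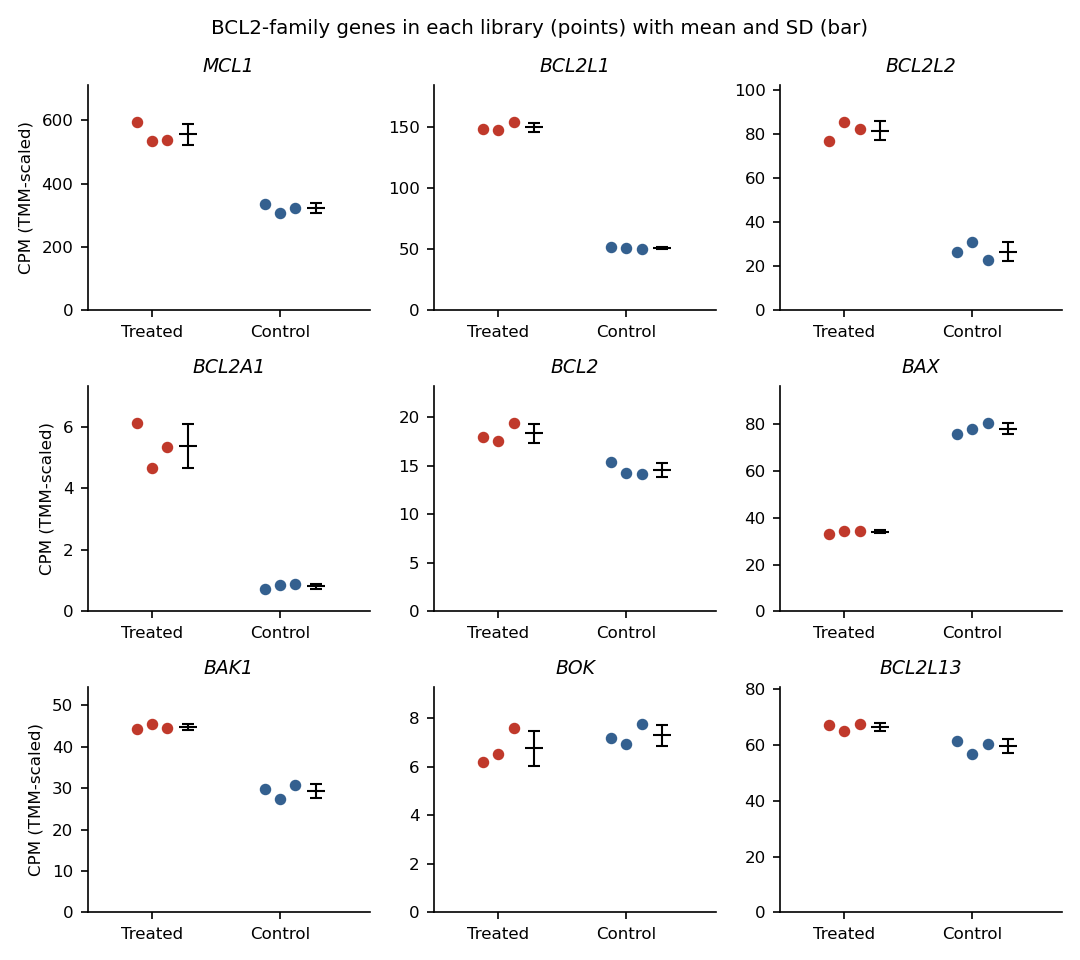
Level of each of the 9 genes in CPM (y axis, from 0, scaled with TMM factors) in the 3 Treated and the 3 Control libraries; points are libraries and the bar beside them is the mean with its SD. The groups do not overlap for any gene but BOK; BAX is the gene whose Treated points lie below its Control points.

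MCL1, whose short-lived protein is known to restrain BAK, was the most abundant guardian mRNA. It had 594, 535 and 538 CPM in the Treated libraries and 337, 308 and 325 CPM in the Control libraries. Every Treated value lay above every Control value, and the 1.72-fold difference (log2 0.78 ± 0.05 SE, edgeR adjusted p = 4.09e-07) far exceeded the spread within groups. MCL1 spans chr1:150574551-150579738 on the minus strand (GENCODE 29, GRCh38).

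The long and the short form of MCL1 differ by 1 coding exon, and its sequence is shown because loss of these bases removes the BH1 region that shapes the groove of the guardian. The 248 bases at chr1:150578244-150578491 are in MCL1-202 and absent from MCL1-201, and the capitals mark the bases that encode the start of the conserved BH1 signature.
MCL1 exon, 5′ to 3′ on the transcribed strand: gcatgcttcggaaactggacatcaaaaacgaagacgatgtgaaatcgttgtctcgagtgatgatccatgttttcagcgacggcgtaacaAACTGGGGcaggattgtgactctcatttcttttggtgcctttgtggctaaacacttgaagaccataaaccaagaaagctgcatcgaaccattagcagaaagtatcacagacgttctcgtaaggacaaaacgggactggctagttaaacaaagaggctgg

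MCL1-202, which encodes the full protein of 350 residues, held 94.0 ± 0.389% of the MCL1 TPM in Treated libraries and 91.5 ± 0.684% in Control libraries (SD, n = 3 each). Its estimated counts were 29692, 25128 and 24732 in Treated and 17143, 14216 and 15724 in Control, a log2 difference of 0.85 ± 0.05 (edgeR over 83015 transcripts, adjusted p = 0.00014). Of all transcripts tested 32.7% passed, 17.5% as higher and 15.2% as lower, and the groups did not overlap for 51.8%. Of the 46 tested transcripts of the 9 genes, 10 rose, 3 fell and 33 did not pass, and 25 had groups that did not overlap. Nearly all of the MCL1 increase was thus counted on the full-length transcript.

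MCL1-201, the exon-skipped form with 271 residues, received 96.9, 46.7 and 31.7 estimated counts in Treated and 95.0, 77.0 and 100.05 in Control libraries. Its level did not pass the test (log2 -0.56 ± 0.40, edgeR adjusted p = 0.347). As a share of MCL1 TPM it was 0.787%, 0.4501% and 0.313% in Treated and 1.32%, 1.27% and 1.495% in Control, so the groups did not overlap, with the exact two-sided permutation p at 0.1, the smallest that 3 against 3 libraries can give. By estimated counts in place of TPM the difference in share was -0.33 percentage points. The short form was therefore a minor component in both groups. The processed transcript MCL1-203 rose by 0.36 ± 0.07 (log2, edgeR adjusted p = 0.0111), and MCL1-204, which encodes 197 residues, had a log2 difference of 0.66 ± 0.44 that did not pass (edgeR adjusted p = 0.313).

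BCL2L1 encodes BCL-XL, which binds both BAX and BAK, and its increase had the smallest standard error of the 9 genes. It had 148, 147 and 154 CPM in Treated libraries against 51.9, 51.4 and 50.0 CPM in Control libraries. Values within each group lay close together, and the groups were 2.93-fold apart (log2 1.55 ± 0.03, edgeR adjusted p = 5.37e-17). The gene lies at chr20:31664452-31723989 on the minus strand.

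The choice of splice donor in BCL2L1 decides between the protective BCL-XL (233 residues) and the death-promoting BCL-XS (170 residues). The 189 bases at chr20:31721655-31721843 are kept in the BCL-XL transcript BCL2L1-201 and missing from the BCL-XS transcript BCL2L1-202, and capitals mark the same 8 bases as in MCL1.
BCL2L1 stretch, 5′ to 3′ on the transcribed strand: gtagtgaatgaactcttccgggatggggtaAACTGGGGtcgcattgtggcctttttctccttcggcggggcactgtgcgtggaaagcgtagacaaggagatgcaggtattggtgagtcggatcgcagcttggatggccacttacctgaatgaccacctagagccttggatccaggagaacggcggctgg

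BCL2L1-202, the BCL-XS transcript, received 1459, 1290 and 1152 estimated counts in Treated libraries and was listed at 0 in each of the 3 Control libraries. It made up 17.8 ± 1.79% of the BCL2L1 TPM in Treated and 0% in Control, and passed the transcript test (edgeR adjusted p = 2.66e-05). No fold is given, because an estimate that divides reads among overlapping transcripts can place a transcript at exactly 0. Length is a further limit, since the transcript has 2496 bases in the files and 2383 in GENCODE 29, and only 1 of the 9 BCL2L1 transcripts has the same length in both.

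The BCL-XL transcripts did not move together. BCL2L1-201 had 1521, 1425 and 748 estimated counts in Treated and 1198, 1017 and 1178 in Control, with Treated replicate 6 below all other libraries and the groups overlapping. Its difference did not pass (log2 0.20 ± 0.24, edgeR adjusted p = 0.581); without Treated replicate 6 it was 0.45 and passed (edgeR adjusted p = 0.00923). Its share of BCL2L1 TPM was 18.2%, 18.0% and 9.26% in Treated against 40.7%, 37.3% and 42.3% in Control (exact permutation p = 0.1, the smallest possible). BCL2L1-203, with the same coding sequence, had 2075, 1739 and 2121 counts in Treated and 709, 538 and 347 in Control and rose by 1.99 ± 0.26 (log2, edgeR adjusted p = 0.00243).

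The 2 transcripts with the whole annotated BCL-XL coding sequence together were 3596, 3163 and 2868 estimated counts in Treated and 1907, 1555 and 1525 in Control. As a share of BCL2L1 TPM they were 39.6 ± 3.72% in Treated and 59.0 ± 5.30% in Control (SD, n = 3 each), lower in every Treated library even though their counts were higher in every one. The other 6 transcripts have no annotated coding end in GENCODE 29 and held 42.6 ± 5.51% in Treated and 41.0 ± 5.30% in Control. Of these 6, 4 (BCL2L1-204, BCL2L1-205, BCL2L1-208 and BCL2L1-209) also hold the 189 bases in full in GENCODE 29. All transcripts annotated with the whole stretch then made up 67.1 ± 1.48% of BCL2L1 TPM in Treated and 87.1 ± 5.06% in Control. The remaining TPM cannot be read as lacking the stretch. BCL2L1-207 ends within it, at chr20:31721676, in GENCODE 29. It has 781 bases there and 2426 in the files, and BCL2L1-206 has 381 and 2441. Among the 6, BCL2L1-204 (log2 1.52 ± 0.23, edgeR adjusted p = 0.00406) and BCL2L1-205 (log2 1.89 ± 0.24, edgeR adjusted p = 0.00229) rose, and 4 did not pass.

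**Figure D2:**
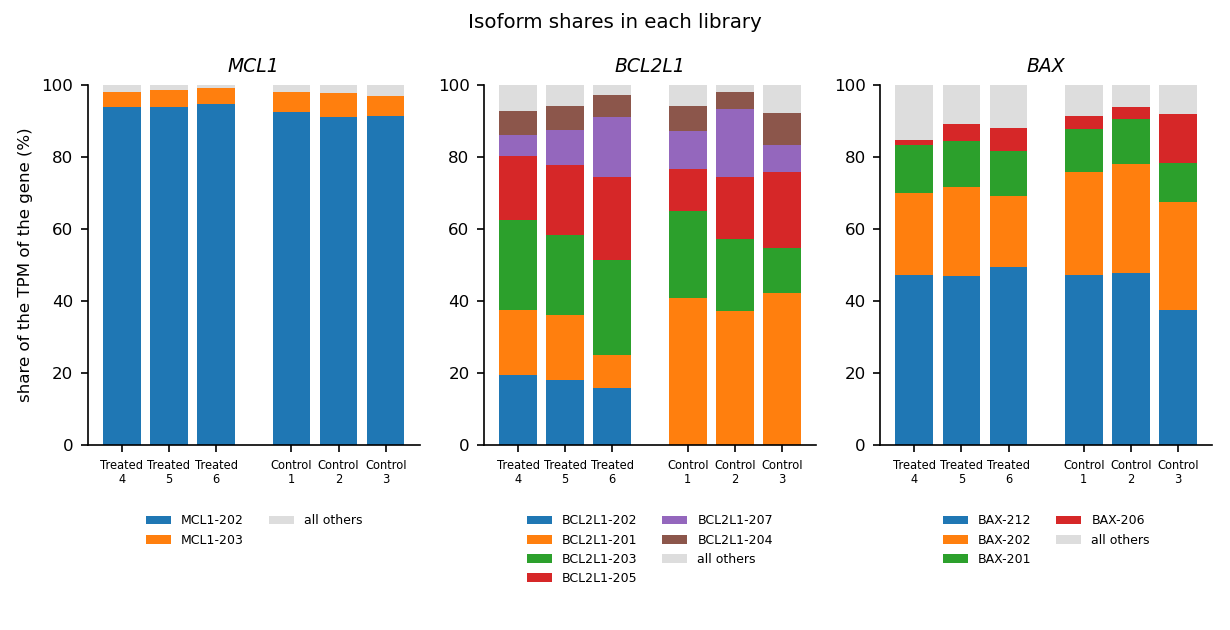
Share of each gene's TPM (y axis, %) taken by its transcripts in each library, Treated on the left and Control on the right, for MCL1, BCL2L1 and BAX; transcripts under 5% in both groups are grey. BCL2L1-202 takes 15.9% to 19.4% in the Treated libraries and 0% in the Control libraries, while MCL1-202 stays above 90% in all 6 libraries.

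BCL2L2 encodes BCL-w, a guardian close to BCL-XL. It had 76.8, 85.4 and 82.4 CPM in Treated and 26.4, 31.1 and 22.7 CPM in Control libraries, 3.05-fold higher with no overlap (log2 1.61 ± 0.13, edgeR adjusted p = 0.000316). Nearly all of its reads went to BCL2L2-201, which encodes the full 193 residues and rose by 1.67 ± 0.13 (log2, edgeR adjusted p = 0.00033). The read-through gene BCL2L2-PABPN1, which shares its first exons with BCL2L2, also rose, to 17.3 ± 1.52 CPM in Treated against 11.4 ± 0.838 CPM in Control (log2 0.60 ± 0.07, edgeR adjusted p = 1.15e-06). Reads in the shared exons could have been divided between the pair, which makes the split between them uncertain.

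BCL2A1, a guardian under control of the melanocyte factor MITF and of NF-kB in other cells, was scarce in Control cultures and showed the largest difference among the 9 genes. Its estimated counts were 325, 234 and 261 in Treated libraries and 40.1, 43.0 and 47.0 in Control libraries. In CPM these were 6.11, 4.66 and 5.35 in Treated and 0.729, 0.847 and 0.890 in Control, a 6.54-fold increase (log2 2.71 ± 0.15, edgeR adjusted p = 1.94e-11). Its transcripts could not be followed singly: BCL2A1-201 was listed at 0 in Control replicate 3 and at 34.5 and 33.4 counts in the other Control libraries, where BCL2A1-202 was at 47.0 against 5.56 and 9.63. Neither transcript passed the test.

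BCL2, the founding guardian of the family, was a minor member in these cells. It had 18.0, 17.6 and 19.4 CPM in Treated and 15.4, 14.2 and 14.1 CPM in Control libraries, a 1.26-fold difference without overlap (log2 0.33 ± 0.06, edgeR adjusted p = 8.91e-05). Per length the groups overlapped, with 4.27, 3.41 and 4.18 TPM in Treated and 4.31, 3.30 and 3.404 TPM in Control, and the call was lost on that scale: log2 0.086 by limma on log2(TPM + 1) (adjusted p = 0.591) and 0.0014 in edgeR with effective lengths as offset (adjusted p = 0.992). The 572-base processed transcript BCL2-204 held 43.2 ± 4.18% of the BCL2 TPM in Treated and 58.4 ± 5.91% in Control. Of the 2 transcripts that encode 239 residues, BCL2-201 rose by 0.60 ± 0.11 (log2, edgeR adjusted p = 0.00884). The other, BCL2-202, had a log2 difference of -0.55 ± 0.23 that did not pass (edgeR adjusted p = 0.132). BCL2-203, with 205 residues, rose by 1.19 ± 0.20 (log2, edgeR adjusted p = 0.00625).

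**Figure D3:**
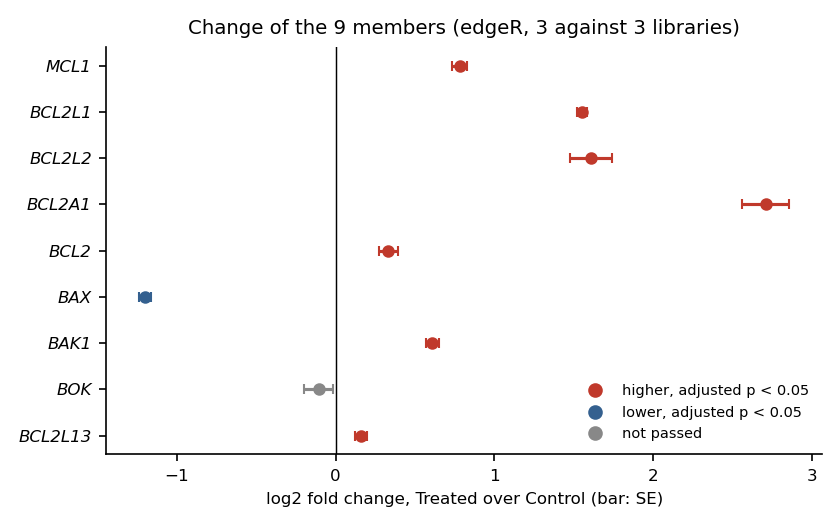
Log2 fold change of each gene, Treated over Control (x axis), with its standard error as bar, from the edgeR fit over 22580 genes; red marks genes that passed as higher, blue as lower and grey those that did not pass. BCL2A1 lies farthest right at 2.71, BAX alone lies clearly left of 0 at -1.20, and BOK lies at -0.11.

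BAX, the effector that moves from the cytosol to mitochondria, was the member that fell. It had 33.2, 34.5 and 34.2 CPM in Treated and 75.8, 78.0 and 80.4 CPM in Control libraries. No library of 1 group came near the other, and the level was 2.30-fold lower in Treated (log2 -1.20 ± 0.04, edgeR adjusted p = 6.73e-15). BAX lies at chr19:48954815-48961798 on the plus strand, and 11 of its 12 transcripts in the files have the length of GENCODE 29.

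BAX-202, which encodes BAX alpha of 192 residues, had 544, 569 and 457 estimated counts in Treated and 1634, 1606 and 1681 in Control libraries and fell by 1.56 ± 0.09 (log2, edgeR adjusted p = 7.3e-05). BAX-201, with 218 residues and a different carboxy terminus, had 600, 574 and 563 counts in Treated and 1277, 1256 and 1147 in Control and fell by 1.00 ± 0.07 (edgeR adjusted p = 0.000189). The ratio of BAX-201 to BAX-202 by TPM was 0.580, 0.527 and 0.644 in Treated against 0.411, 0.409 and 0.355 in Control.

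In shares of BAX TPM, BAX-202 held 22.3 ± 2.48% in Treated and 29.7 ± 0.867% in Control, and BAX-201 held 12.9 ± 0.300% in Treated and 11.6 ± 0.911% in Control (exact permutation p = 0.1 for each, the smallest possible). By estimated counts the BAX-201 share was 3.82 percentage points higher in Treated. The 4 retained-intron transcripts together held 7.96 ± 1.36% of BAX TPM in Treated and 5.00 ± 0.565% in Control, with no overlap. BAX-206, which encodes 179 residues, had 20.7, 65.9 and 86.9 counts in Treated and 125, 101 and 462 in Control; Control replicate 3 stood apart and the difference did not pass (edgeR adjusted p = 0.138).

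The short transcript BAX-212, annotated as a target of nonsense-mediated decay, skips a 52-base exon at chr19:48955548-48955599, which shifts the reading frame. The exon is shown because it is present in the protein-coding BAX-202 and absent from the transcript with the highest BAX TPM. It is not their only difference. BAX-212 is annotated with 3 exons up to chr19:48956316, and BAX-202 with 6 exons up to chr19:48961798.
BAX exon, 5′ to 3′, with no part marked: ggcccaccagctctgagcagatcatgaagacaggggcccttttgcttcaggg
BAX-212 had 309, 302 and 309 counts in Treated and 734, 683 and 582 in Control and fell by 1.03 ± 0.11 (log2, edgeR adjusted p = 0.00105). It has only 300 bases, and it held 47.9 ± 1.34% of BAX TPM in Treated and 44.1 ± 5.70% in Control but 17.8% of the estimated counts in Treated and 16.2% in Control. Its TPM share overlapped between the groups (exact permutation p = 0.5).

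BAK1, the effector that resides in the mitochondrial outer membrane, moved the other way from BAX. It had 44.2, 45.5 and 44.5 CPM in Treated and 29.7, 27.5 and 30.7 CPM in Control libraries, 1.52-fold higher without overlap (log2 0.61 ± 0.04, edgeR adjusted p = 4.56e-10). The full-length BAK1-202, with 211 residues, rose by 0.69 ± 0.11 (log2, edgeR adjusted p = 0.00441).

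BOK, an effector found mainly at the endoplasmic reticulum, was the least abundant effector. It had 6.19, 6.51 and 7.57 CPM in Treated and 7.16, 6.93 and 7.74 CPM in Control libraries, overlapping ranges whose difference did not pass (log2 -0.11 ± 0.09, edgeR adjusted p = 0.318). Its estimate ran from -0.43 to -0.01 over the alternatives, none of which called it. BCL2L13, a BCL2 relative of the outer membrane that acts as a mitophagy receptor, had 67.1, 64.9 and 67.4 CPM in Treated and 61.3, 56.8 and 60.4 CPM in Control, higher by a factor of 1.117 without overlap (log2 0.16 ± 0.04, edgeR adjusted p = 0.00116). Over protein-coding transcripts alone the BCL2L13 difference was 0.45 (edgeR adjusted p = 0.000163), and with effective lengths as offset it was 0.10 and no longer called (edgeR adjusted p = 0.0964). None of its 11 tested transcripts passed singly.

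Levels of different genes were compared in TPM, which is scaled by transcript length. In Treated cultures MCL1 stood first with 116.3 ± 15.8 TPM, followed by BCL2L1 (32.3 ± 2.05), BAX (31.8 ± 1.47), BCL2L13 (20.5 ± 1.72), BCL2L2 (13.7 ± 0.711), BAK1 (9.20 ± 0.693), BCL2A1 (8.49 ± 1.64), BCL2 (3.95 ± 0.471) and BOK (1.28 ± 0.262) (SD, n = 3). In Control cultures BAX (66.9 ± 3.69 TPM) and MCL1 (63.4 ± 4.71) shared the top, followed by BCL2L13 (17.7 ± 1.88), BCL2L1 (10.1 ± 0.805), BAK1 (5.66 ± 0.278), BCL2L2 (4.45 ± 0.935), BCL2 (3.67 ± 0.553), BOK (1.60 ± 0.419) and BCL2A1 (1.18 ± 0.120). Neighbours whose library values overlapped were BCL2L1 with BAX and BAK1 with BCL2A1 in Treated, and BAX with MCL1, BCL2L2 with BCL2 and BOK with BCL2A1 in Control. These levels are sums over all transcripts of a gene, of which protein-coding ones held 42.8 ± 1.92% of BAX TPM in Treated and 49.9 ± 5.57% in Control. Over protein-coding transcripts alone MCL1 stood first in both groups, at 111.2 ± 15.6 TPM in Treated and 59.7 ± 4.38 TPM in Control, and BAX had 13.6 ± 0.689 TPM in Treated and 33.3 ± 1.99 TPM in Control.

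Summed over protein-coding transcripts, the 5 guardians reached 190.7, 157.0 and 156.2 TPM in Treated libraries and 82.1, 77.9 and 70.6 TPM in Control libraries. The 3 effectors summed to 25.3, 23.9 and 22.7 TPM in Treated and 38.7, 39.7 and 42.0 TPM in Control. The guardian sum was therefore 7.55, 6.56 and 6.89 times the effector sum in Treated and 2.12, 1.96 and 1.68 times in Control, with no overlap. The guardian sums count the BCL-XS transcript of BCL2L1 and the short form of MCL1, although both favour death. BCL-XS had 6.71, 5.59 and 5.01 TPM in the Treated libraries and 0 in each Control library. It therefore raised the guardian sum and the ratio in Treated only. Ratios without these short forms were not computed. The ratios given are descriptions of the summed mRNA and were not tested. Over all transcripts, decay and retained-intron forms included, the ratios were 4.44, 3.995 and 3.95 in Treated and 1.18, 1.08 and 1.08 in Control.

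The make-up of both classes differed too, here over all transcripts, decay and retained-intron forms included. BCL-XS and the short form of MCL1 are again counted as guardian TPM. MCL1 contributed 66.4 ± 1.39% of the guardian TPM in Treated and 76.6 ± 0.995% in Control, BCL2L1 18.6 ± 0.954% in Treated and 12.2 ± 0.469% in Control, and BCL2A1 4.83 ± 0.425% in Treated and 1.43 ± 0.151% in Control. BAX supplied 75.2 ± 0.140% of the effector TPM in Treated and 90.2 ± 0.699% in Control. Over protein-coding transcripts BAX supplied 56.74 ± 0.943% in Treated and 82.95 ± 1.44% in Control. Its TPM was 3.46 ± 0.130 times that of BAK1 in Treated and 11.8 ± 0.628 times in Control, and over protein-coding transcripts 1.48 ± 0.0589 times in Treated and 5.91 ± 0.626 times in Control.

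**Figure D4:**
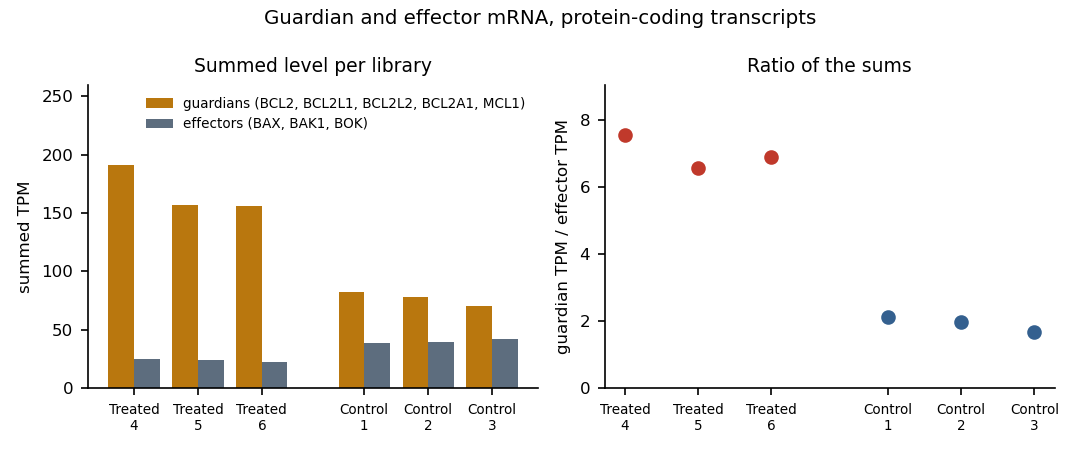
Left, TPM summed over protein-coding transcripts of the 5 guardian and the 3 effector genes in each library; right, the ratio of the sums in each library, Treated in red and Control in blue, both axes from 0. The ratio lies between 6.56 and 7.55 in Treated and between 1.68 and 2.12 in Control. Guardian sums include the short form of MCL1 and BCL-XS, which was listed at 0 in Control.

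The BH3-only proteins, which switch the effectors on or occupy the guardians, moved in both directions. Of 12 tested, 4 rose, 6 fell and 2 did not pass, with a median log2 fold change of -0.01. BCL2L11 and BCL2L14, both called lower, were near the threshold (edgeR adjusted p = 0.0478 for each). With each library left out in turn 8 to 10 of the list passed. For this list and those below, the share over all genes tested was 69.4% called, 34.9% as higher and 34.5% as lower. PMAIP1, whose product NOXA binds MCL1, had 208.2 ± 6.42 CPM in Treated and 20.3 ± 1.10 CPM in Control (log2 3.36 ± 0.04, edgeR adjusted p = 1.07e-19). BBC3, which encodes PUMA, a binder of all guardians, had 19.5 ± 0.985 CPM in Treated and 7.03 ± 0.394 CPM in Control (log2 1.47 ± 0.07), and the autophagy gene BECN1 rose by 0.42. BID, the link from death receptors to BAX and BAK, had a log2 change of -1.49, and the mitophagy receptors BNIP3 and BNIP3L fell by 1.26 and 0.77 (edgeR adjusted p = 3.89e-12 for BID, 2.42e-15 for BNIP3 and 3.55e-12 for BNIP3L).

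Among 12 mitochondrial partners of BAX and BAK, none rose, 11 fell and 1 did not pass, with a median of -0.44. Over all genes 34.5% were called lower. OPA1 and OMA1 were near the threshold (edgeR adjusted p = 0.0275 and 0.0363), and with each library left out in turn 9 to 11 of the list passed. The channel genes VDAC1 and VDAC3 fell by 1.03 and 0.87 on the log2 scale, and MTCH2, which helps insert membrane proteins and receives BID, fell by 1.11. VDAC1 had 180.1 ± 4.23 CPM in Treated and 366.8 ± 9.42 CPM in Control (edgeR adjusted p = 3.02e-15). The gene that did not pass was the fusion gene MFN2, named here after its values were seen, at 80.4, 64.6 and 2.60 CPM in Treated replicates 4, 5 and 6 and 115.4, 104.2 and 109.2 CPM in Control libraries (log2 -1.15 ± 1.06, edgeR adjusted p = 0.394). Treated replicate 6 stood far below the other Treated libraries, all 3 lay below Control, and without that library the difference was -0.57 and passed (edgeR adjusted p = 0.0202).

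Downstream of the pore, 2 of 10 apoptosome and caspase genes were called higher, 7 lower and 1 neither (median -0.45). CYCS, which encodes the released cytochrome c, rose by 0.41 (log2), as did the initiator caspase gene CASP9 by 0.24, while the apoptosome scaffold gene APAF1 fell by 0.72, CASP6 by 1.77 and the caspase substrate gene PARP1 by 1.38. PARP1 had 240.6 ± 2.04 CPM in Treated and 626.5 ± 21.0 CPM in Control (edgeR adjusted p = 5.87e-17). A list of 9 inhibitors of apoptosis and their antagonists also included ENDOG and AIFM1, which belong to neither class. Of the 9, 3 were called higher, 5 lower (ENDOG among them) and 1, AIFM1, neither (median -0.30). BIRC3, which encodes cIAP2, had 20.3 ± 1.03 CPM in Treated and 2.23 ± 0.378 CPM in Control (log2 3.19 ± 0.10, edgeR adjusted p = 7.41e-14). BIRC2 rose by 0.48 and DIABLO, whose product SMAC counters these inhibitors, by 0.59, and BIRC5 (survivin) fell by 0.35, BIRC6 by 0.47 and ENDOG by 0.71.

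MCL1 protein is set by ubiquitin ligases, deubiquitinases and the kinases and phosphatases of its phosphorylation pathway, and the 11 mRNAs listed for these did not move in 1 direction. The test called 4 higher and 5 lower and left 2 uncalled (median -0.08). The ligase gene FBXW7 rose by 0.40 and the deubiquitinase gene USP9X by 0.30 on the log2 scale, whereas USP13, another deubiquitinase gene, fell by 0.75, CDC20 by 0.58 and BTRC by 0.23. DUSP6, an ERK phosphatase gene, had 541.9 ± 7.32 CPM in Treated and 205.7 ± 8.50 CPM in Control (log2 1.40 ± 0.03, edgeR adjusted p = 1.08e-16). Protein levels were not measured.

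Splicing factors and kinases with known roles in BCL2L1 or MCL1 splicing were mostly lower. Of 18 tested genes (RBM11 did not pass the filter), 6 rose and 12 fell, with a median of -0.53 against -0.02 over all genes. KHDRBS1, which encodes SAM68, a factor known to favour BCL-XS, fell by 1.01 on the log2 scale, with 122.4 ± 0.790 CPM in Treated and 247.2 ± 10.6 CPM in Control (edgeR adjusted p = 1.14e-14). RBM10 fell by 1.13 and SRSF2 by 0.79, while RBM4 (log2 0.92 ± 0.03), the kinase gene CLK1 (log2 1.00 ± 0.04) and SRSF10 (log2 0.27 ± 0.03) rose. The part of these factors in the isoform shares above was not tested.

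**Figure D5:**
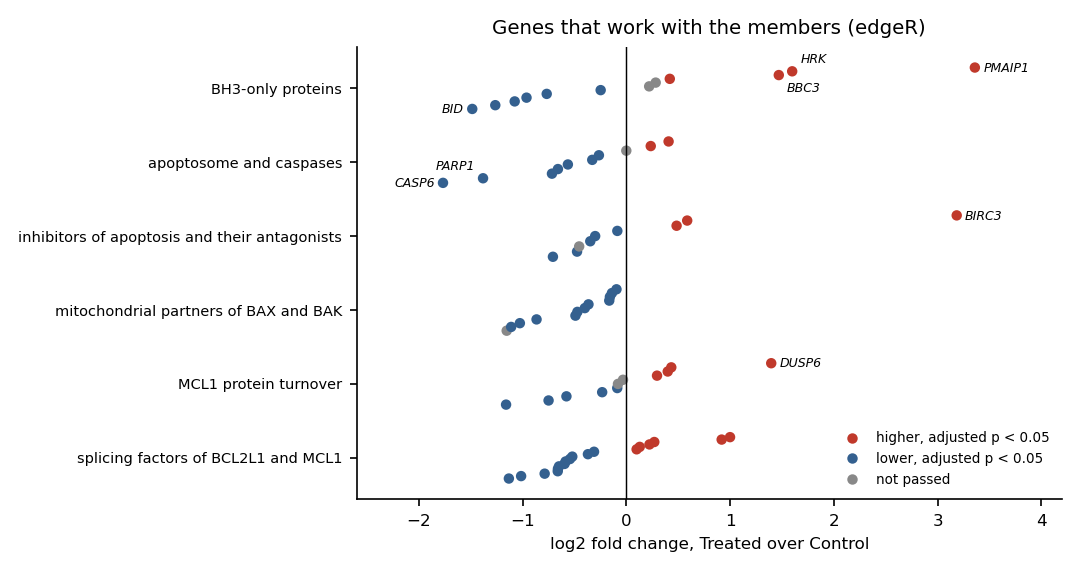
Log2 fold change, Treated over Control (x axis), of each tested gene in the 6 lists of genes that work with the family, from the edgeR fit over all genes; red passed as higher, blue as lower and grey did not pass. All coloured points of the mitochondrial partners lie left of 0, and PMAIP1 at 3.36 and BIRC3 at 3.19 lie farthest right.

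Antisense and overlapping genes were read beside the members because the sources used here do not say whether the libraries kept strand. ABALON, antisense to BCL2L1, had 1.81 ± 0.482 CPM in Treated and 0.808 ± 0.0816 CPM in Control (log2 1.16 ± 0.22, edgeR adjusted p = 0.00012), and AL117381.1, also antisense to BCL2L1, rose by 1.03 ± 0.37 (edgeR adjusted p = 0.0193). On the strand opposite BAK1 the pseudogene GGNBP1 rose by 1.36 ± 0.24 (edgeR adjusted p = 5.79e-05). Opposite BCL2L2, HOMEZ fell by 0.97 on the log2 scale, against the direction of BCL2L2, and PPP1R3E did not pass (edgeR adjusted p = 0.22). ADAMTSL4-AS1, which overlaps MCL1, stood at 0.878 ± 0.230 CPM in Treated and 0.834 ± 0.0611 CPM in Control (edgeR adjusted p = 0.784). All 6 genes were far less abundant than the member they overlap.

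The genes whose profile over the 6 libraries lay nearest to a member were found by the root mean square difference of centred log2 CPM among 9941 genes of at least 10 CPM. For MCL1 they were COA6 (0.0295), MFAP3 (0.0296) and MTIF3 (0.0329). TUT1 (0.0160), ZFP42 (0.0175) and DNAJB2 (0.0199) lay nearest to BCL2L1, and CENPX (0.0265), CHST12 (0.0285) and TPM3 (0.0286) nearest to BAX.

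Promoter windows of 300 bases from RefSeq (GRCh38.p14) matched 7 of the 9 genes, MCL1 and BCL2L2 without an entry, and were searched on both strands for TGATGNAA (TTNCATCA on the other strand), the core of the element bound by ATF4 with C/EBP partners, for the E-box CACGTG and for the AP-1 core TGANTCA. Of 35116 windows 3.62%, 7.26% and 7.71% held the 3 motifs in that order. The windows of the member that fell and of the member with the largest increase are shown. The BAX window, chr19:48954625-48954924 on the plus strand, held CACGTG 4 times (capitals), and 4 or more copies were present in 0.014% of all windows.
BAX promoter window: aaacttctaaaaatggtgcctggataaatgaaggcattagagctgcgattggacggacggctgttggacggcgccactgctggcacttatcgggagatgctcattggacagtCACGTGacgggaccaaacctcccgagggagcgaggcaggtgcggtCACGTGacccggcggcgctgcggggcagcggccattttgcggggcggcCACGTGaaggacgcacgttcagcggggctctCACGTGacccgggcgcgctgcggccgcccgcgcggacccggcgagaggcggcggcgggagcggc
The BCL2A1 window, chr15:79971147-79971446 on the minus strand, held 1 match to TGATGNAA (capitals).
BCL2A1 promoter window: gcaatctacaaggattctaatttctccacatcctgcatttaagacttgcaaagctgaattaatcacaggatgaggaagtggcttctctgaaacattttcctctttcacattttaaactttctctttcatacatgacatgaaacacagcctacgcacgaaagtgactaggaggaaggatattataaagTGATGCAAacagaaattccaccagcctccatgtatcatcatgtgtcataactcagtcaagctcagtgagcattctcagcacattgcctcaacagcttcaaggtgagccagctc
In the other windows neither TGATGNAA nor CACGTG was found, and TGANTCA occurred once, in 1 window of BCL2L13. No window of these genes held more than 1 of the 3 motifs, so no matches to different motifs overlapped. A match is a description of letters, and binding was not measured.

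Treated libraries held 50760266 to 53682075 estimated counts and Control libraries 53441686 to 59954677. Of the markers listed for melanoma and melanocytes, 7 of 12 reached 1 TPM in every library. SOX10, at 55.9 ± 4.02 TPM in Treated and 67.2 ± 7.78 TPM in Control, and MITF had overlapping groups. S100B, S100A1 and CSPG4 were lower in every Treated library than in any Control library, and MIA and PAX3 were higher. S100B had 4.28 ± 1.12 TPM in Treated and 26.45 ± 1.475 TPM in Control. The pigment genes MLANA, TYR, DCT and TYRP1 stayed under 1 TPM. PMEL, another pigment gene, had 1.27 ± 0.143 TPM in Treated and 0.357 ± 0.0231 TPM in Control. The summed melanoma markers ranged from 201.2 to 243.4 TPM in Treated and from 239.9 to 286.5 TPM in Control. Of the markers listed for other cell types, PTPRC, CD3E and CD14 of leukocytes, PECAM1, CDH5 and VWF of endothelium, COL1A1, COL1A2, COL3A1, DCN and PDGFRA of fibroblasts, and KRT5, EPCAM and CDH1 of epithelium stayed under 1 TPM in every library. Others did not: KRT18 had 150.8 ± 11.9 TPM in Treated and 148.8 ± 6.28 TPM in Control, KRT8 11.8 ± 1.99 TPM in Treated and 13.5 ± 0.0399 TPM in Control, and KRT14 7.47 ± 0.768 TPM in Treated and 12.8 ± 1.06 TPM in Control. LYZ had 2.33 ± 0.515 TPM in Treated and 6.25 ± 0.904 TPM in Control, LUM 1.15 ± 0.227 TPM in Treated and 2.45 ± 0.314 TPM in Control, and KDR passed 1 TPM in 1 Control library. The leukocyte list summed to 2.14 to 3.10 TPM in Treated and 5.91 to 7.43 TPM in Control, mostly LYZ, and the fibroblast list to 1.98 to 2.13 TPM in Treated and 3.68 to 4.37 TPM in Control. The endothelial list summed to 0.994 to 1.32 TPM in Treated and 0.907 to 1.49 TPM in Control, and the epithelial list, mostly KRT18, to 161.4 to 187.3 TPM in Treated and 167.5 to 179.8 TPM in Control.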

How the data were processed

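RNA of 3 Treated and 3 Control A375 cultures was sequenced. Per the file headers, the deposited tables give estimated counts (expected counts, not scaled between libraries), TPM, length and effective length for 244939 transcripts, and both kallisto 0.45.0 and DESeq2 1.30.0 are listed per the submitters' processing notes. The transcript index and genome build are not given in the sources used here. Of the transcripts 203436 matched GENCODE 29 by identifier, 87.69% of them with equal length, and the 41503 unmatched ones, with 4.86% to 5.13% of the counts, were left out.

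Counts were summed per gene, rounded, filtered with filterByExpr (minimum count 10), scaled with TMM and tested with edgeR 4.0.16 (quasi-likelihood, robust, R 4.3.3) over 22580 genes and, singly, over 83015 transcripts. DESeq2 1.42.0 and limma 3.58.1 on log2(TPM + 1) and log2(TPM + 0.1) were alternatives. The error of dividing reads between transcripts is not in the files. The gene test was run on counts simulated with common, trended and per-feature dispersions (21981 to 22100 genes). In these 200 genes were changed, all with a mean above 1 CPM. The test recovered 75.4% to 92.8% of genes changed 1.5-fold, 91.9% to 100% of those changed 2-fold and all changed 4-fold. Of its calls 1.57% to 18.3% were of unchanged genes. In the data 69.4% of genes passed, so these rates may not hold there. The transcript test (77679 to 79530 transcripts) recovered 2%, 81.0% and 75.5% of 200 transcripts changed 3-fold under the 3 dispersions in that order, with at most 12.2% of calls wrong. A planned test of isoform usage (12362 to 12468 genes) made 60%, 7.08% and 58% wrong calls and was not used, so shares are described with exact permutation tests.

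Members and lists were chosen with earlier results of these data known. Named were all members, transcripts of MCL1, BCL2L1 and BAX with 5% of the gene's TPM or another protein length, up to 3 list genes in each direction with the lowest adjusted p, overlapping genes and the 3 nearest genes. A few other genes and transcripts are named for completeness, after their values were seen. A planned leukocyte marker is not reported here and is left out of its list's sum.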

Additional observations from a re-analysis of the deposited data

How the results depend on the processing

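Over 15 alternatives per member (14 for BCL2A1, which has no value with a minimum of 1 CPM in all libraries), MCL1, BCL2L1, BCL2L2, BCL2A1, BAX and BAK1 kept their direction and call, and BOK was never called. BCL2 lost its call in limma on log2(TPM + 1) (0.086, adjusted p = 0.591), on log2(TPM + 0.1) (0.11, adjusted p = 0.572) and in edgeR with effective lengths as offset (0.0014, adjusted p = 0.992). BCL2L13 lost its call in the same order at 0.20 (adjusted p = 0.108), 0.21 (adjusted p = 0.103) and 0.10 (adjusted p = 0.0964). The cause was not tested. By estimated counts the share difference was -0.33 percentage points for MCL1-201 and 3.82 for BAX-201. Without Control replicate 3 the BAX-212 share difference was 0.476 points. BCL2L1-201 passed without Treated replicate 6, as given above. BCL2L1-204 was higher by 0.87 in limma on log2(TPM + 1). Genes called ranged from 11169 (protein-coding transcripts only) to 17011 (no filter), transcripts called from 21607 to 28849. With each library left out in turn, 8 to 10 BH3-only genes and 8 to 9 apoptosome and caspase genes passed. The same range was 7 to 8 for the list of inhibitors of apoptosis and 8 to 9 for MCL1 protein turnover. It was 17 to 19 of the 19 listed splicing genes.

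No paired analysis was possible because the groups have no replicate number in common. The alternatives of the isoform usage test were not run. Limits are the 3 cultures per group of 1 cell line, an index of another release than GENCODE 29, and an estimate of read sharing whose error is not in the files. A gene's summed count does not depend on how reads were divided among its own matched transcripts. Reads given to unmatched transcripts are left out of gene sums and shares, and the genes of those transcripts were not looked up. A gene's summed TPM does depend on the division among matched transcripts, because TPM is scaled by transcript length. So do the TPM rankings, class sums and ratios above.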
